A study of Mus musculus with 9 samples.

Results

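The integrated stress response is followed here through 10 of its genes in 4T1 cells, a mouse mammary carcinoma line. The genes were listed by role and name, as transcription factors (Atf4, Atf5, Ddit3, Atf3 and Cebpb) or as feedback regulators and effectors (Chac1, Trib3, Ppp1r15a, Sesn2 and Ddit4), out of 24421 genes in the count table. All 10 were among the 12575 genes with enough counts to be tested. They were chosen by these names while the fold changes and calls of both comparisons were already known, so the values in the comparisons below are given as a description and carry no p-value of their own. Cells were kept for 5 days in 1 of 3 conditions, with 3 libraries each: 3D cultures with No palmitate added, 3D cultures with 75 µM palmitate and 2D cultures with 75 µM palmitate. The 3D cultures grew on plates covered with soft agar, and the palmitate was carried by BSA on top of what serum supplies, while the cultures without it received the same BSA stock with matching ethanol. All 3 groups are the same cell line with no genetic change named in the labels, and no 2D culture without palmitate was analysed here. The labels do not say that the libraries of a group came from separate cultures, so the spread between them may be technical.

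In this response, eIF2α kinases (PERK, GCN2, PKR and HRI) answer different stresses by phosphorylating the initiation factor eIF2. General translation falls while mRNAs with suitable upstream open reading frames, Atf4 first among them, are translated more. ATF4 then switches on genes of amino acid supply and further factors such as CHOP, the product of Ddit3, and GADD34, the product of Ppp1r15a, which brings a phosphatase back to eIF2α and closes the loop. A large part of this control acts on translation and protein, and RNA-seq counts measure only the mRNA. In bulk RNA, fewer cells with a transcript and less of it per cell cannot be told apart.

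Library totals ran from 6595514 to 31177756 counts, and replicate 3 of 3D with palmitate was the smallest. The ribosomal RNA precursor Rn45s took 1.77% to 5.38% of the counts. Levels are given as CPM, read counts relative to the library total after TMM scaling, except that the summed marker levels of this paragraph are without TMM scaling. All 8 epithelial markers had counts in every library, with summed levels of 4690 to 4790 CPM in 3D without palmitate, 4540 to 4820 in 3D with palmitate and 3370 to 3650 in 2D. Between 3D and 2D with palmitate Epcam (1.43) and Krt8 (0.59) were higher and Cldn4 (-0.82) was lower on the log2 scale, and with palmitate in 3D none was called, with Epcam, Krt19 and Ocln at -0.22, -0.20 and -0.17. Of 9 markers of fibroblasts, leukocytes and endothelium, whose summed levels were 99.2 to 111, 102 to 118 and 54.8 to 59.2 CPM in the same order, 7 never passed 11 counts in a library, and 3 of these (Lum, Adgre1 and Cd3e) had 0. The remaining pair were Pdgfra and Cd68, which differed between 3D and 2D with palmitate by 1.69 and -1.39 on the log2 scale and with palmitate in 3D, uncalled, by 0.0084 and 0.46. Their part in the results below was not tested.

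Promoters of 4 regulators are shown because each holds a motif that ATF4 or related bZIP factors are known to bind. The windows are RefSeq's for GRCm38.p6, from 250 bases before to 50 bases after the annotated start, and all 10 genes had at least 1. The core of the C/EBP-ATF response element, TGATGNAA, was searched on both strands. It occurs in 3.97% of all 32851 windows and in 4.51% of the 27025 genes with a window. It was present in Atf3 (chr1:191183284-191183583, minus strand), Chac1 (chr2:119350992-119351291, plus strand) and Trib3 (chr2:152344011-152344310, minus strand), each time on the strand opposite to the gene, so that the capitals below are its reverse complement. Counted from the start, it ran from position -110 to -103 in Atf3, from -193 to -186 in Chac1 and from 15 to 22 in Trib3. The palindromic cyclic AMP response element TGACGTCA occurs in 1.79% of all windows and in 2.03% of genes with a window. In Ppp1r15a (chr7:45526219-45526518, minus strand) it stood from position -12 to -5 and is in capitals. These letters were in none of the windows of Atf4, Atf5, Ddit3, Cebpb, Sesn2 and Ddit4.
Atf3: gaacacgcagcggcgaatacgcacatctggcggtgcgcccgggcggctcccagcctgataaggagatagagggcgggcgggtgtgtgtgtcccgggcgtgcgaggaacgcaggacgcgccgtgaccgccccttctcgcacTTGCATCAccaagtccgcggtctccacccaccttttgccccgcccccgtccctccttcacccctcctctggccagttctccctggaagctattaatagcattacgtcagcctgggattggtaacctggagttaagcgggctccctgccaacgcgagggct
Chac1: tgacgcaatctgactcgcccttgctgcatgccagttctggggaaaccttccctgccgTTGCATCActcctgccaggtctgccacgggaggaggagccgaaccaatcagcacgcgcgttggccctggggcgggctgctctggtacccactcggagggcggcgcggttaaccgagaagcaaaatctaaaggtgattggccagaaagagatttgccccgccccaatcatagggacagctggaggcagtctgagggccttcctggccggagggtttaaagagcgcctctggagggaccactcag
Trib3: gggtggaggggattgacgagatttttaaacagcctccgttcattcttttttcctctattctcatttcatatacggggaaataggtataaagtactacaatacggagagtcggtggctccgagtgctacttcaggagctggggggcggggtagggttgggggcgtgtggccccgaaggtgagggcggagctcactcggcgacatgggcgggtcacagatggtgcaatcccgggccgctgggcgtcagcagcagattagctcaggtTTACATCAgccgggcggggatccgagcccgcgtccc
Ppp1r15a: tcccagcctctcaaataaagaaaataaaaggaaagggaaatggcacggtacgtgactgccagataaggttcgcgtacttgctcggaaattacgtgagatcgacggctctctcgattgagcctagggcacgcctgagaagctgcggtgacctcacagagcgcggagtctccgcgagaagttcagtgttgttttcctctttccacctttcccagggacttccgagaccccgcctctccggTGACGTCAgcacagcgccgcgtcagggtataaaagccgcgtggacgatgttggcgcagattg

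The regulators differed widely in level. Compared per kilobase of exon, Atf4 mRNA was the highest of the 10 in each condition, with 117 ± 6.47 CPM per kb (SD, n = 3) in 3D without palmitate, 135 ± 4.35 in 3D with palmitate and 299 ± 14.8 in 2D. Its libraries overlapped with those of Atf5 and Cebpb in 3D without palmitate and with those of Cebpb in 3D with palmitate. Atf5, Cebpb and Ddit4 also lay above the 95th percentile of genes tested in all 3 conditions. Sesn2, a sestrin that restrains mTORC1 when amino acids are short, was the lowest by this measure and stood at the 25.8th percentile in 3D without palmitate and the 44.3rd in 2D. Ppp1r15a, Atf3, Ddit3 and Chac1 lay between the 33.5th and 58.1st percentile in 3D without palmitate and between the 73.1st and 91.3rd in 2D.

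**Figure D1:**
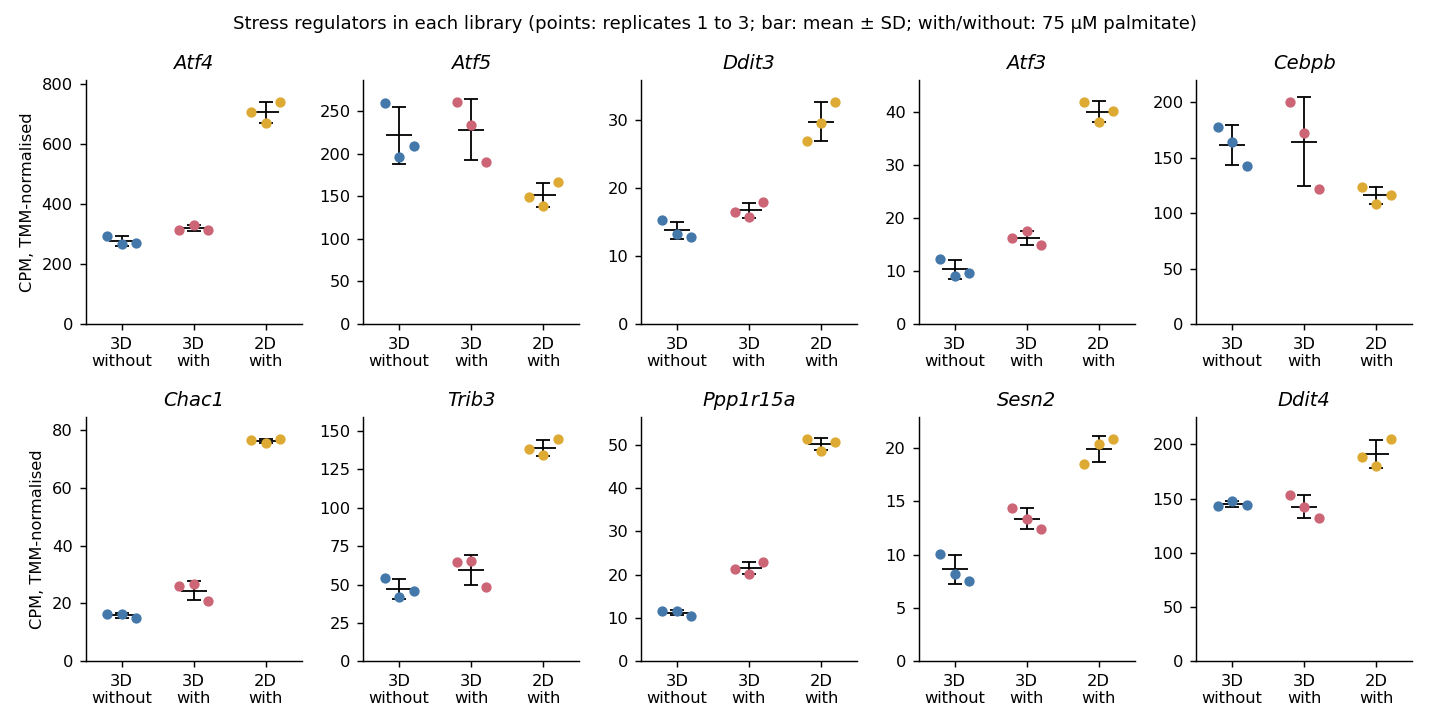
Normalised level (CPM, vertical axes from 0) of each regulator in the 9 libraries, with points for replicates 1 to 3 from left to right and the bar for the mean ± SD of 3 libraries. In 8 of the 10 panels the 2D libraries are the highest, while Atf5 and Cebpb are highest in 3D.

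Palmitate in 3D culture came with higher mRNA of 4 regulators, Ppp1r15a, Sesn2, Atf3 and Chac1, and with no called change of the other 6. Called means an adjusted p under 0.05 in the quasi-likelihood test of edgeR, adjusted after Benjamini and Hochberg over all 12575 genes, of which 1.38% were called higher and 0.811% lower in this comparison. None of the 10 was called lower. The median log2 fold change of the 10 was 0.31, beside 0.0077 over all genes tested. In 6 of the 10 the 3 libraries with palmitate lay above the 3 without, which held for 10.4% of all genes, and in none did they lie below, which held for 8.19%. Since the list was made with these values known, the counts are no evidence that the regulators differ from other genes.

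Ppp1r15a, which encodes the stress-induced subunit GADD34 of the eIF2α phosphatase, had the largest difference of the 10. Its level was 11.5, 11.6 and 10.5 CPM in the 3D libraries without palmitate and 21.4, 20.3 and 23.0 CPM in those with it. The groups were far apart compared with their spread, at 1.9-fold, and the log2 fold change was 0.93 (SE 0.085). By the size of that change Ppp1r15a stood at place 133 of the genes tested.

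Chac1, whose product degrades glutathione, measured 16.5, 16.4 and 15.0 CPM without palmitate and 25.9, 26.7 and 20.8 CPM with it. All libraries with palmitate were above all without, and the log2 fold change was 0.65 (SE 0.089). Atf3, a bZIP factor that is induced by many stresses, rose by 0.65 on the log2 scale (SE 0.12), from 12.3, 9.05 and 9.60 CPM to 16.2, 17.5 and 14.9 CPM. Replicate 1 of the cultures without palmitate was the nearest to the palmitate group. Sesn2 rose by the same 0.65 (SE 0.12), from 10.1, 8.21 and 7.54 CPM to 14.4, 13.4 and 12.4 CPM. Its smallest count in any library was 81, in replicate 3 of 3D with palmitate.

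The difference was smaller for Atf4, the factor that heads the pathway. It was at 294, 266 and 269 CPM without palmitate and at 313, 330.2 and 312 CPM with it. The groups did not overlap, but the log2 fold change of 0.20 (95% interval 0.067 to 0.34) was not called. Ddit3 mRNA, for the proapoptotic factor CHOP, was likewise apart without a call, at 15.3, 13.2 and 12.9 CPM against 16.5, 15.8 and 17.9 CPM, with a log2 fold change of 0.27 (95% interval 0.040 to 0.49). Trib3, a pseudokinase that binds ATF4 and CHOP and dampens them, measured 54.3, 41.7 and 45.5 CPM without and 65.0, 65.1 and 48.6 CPM with palmitate. Here replicate 3 with palmitate fell within the other group, and the log2 fold change of 0.35 (95% interval 0.12 to 0.59) was not called.

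Atf5, a close relative of ATF4 tied to mitochondrial stress, Cebpb, a dimer partner of ATF4, and Ddit4, the mTORC1 inhibitor REDD1, overlapped between the groups. Their log2 fold changes were 0.049 (95% interval -0.20 to 0.30), 0.044 (-0.24 to 0.33) and -0.020 (-0.17 to 0.13). Ddit4 lay between 143 and 148 CPM without palmitate and between 132 and 153 CPM with it. Atf5 ranged from 196 to 259 and from 190 to 260.5 CPM, and Cebpb from 142 to 178 and from 121 to 200.2 CPM, so that the spread within each group was wider than the difference of the means.

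**Figure D2:**
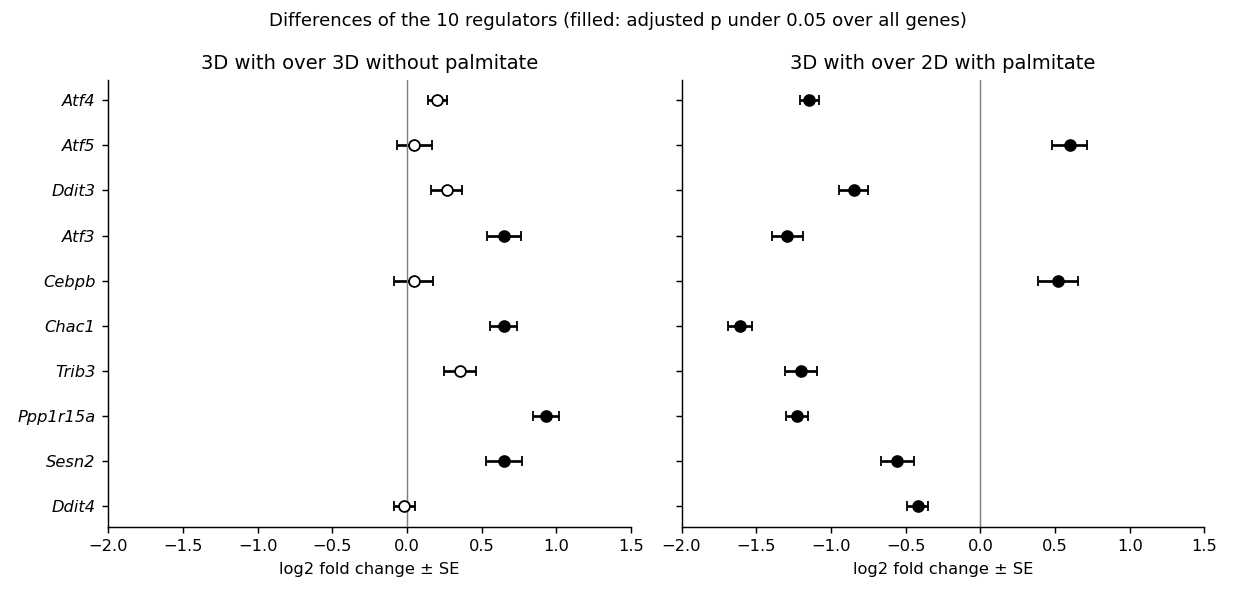
Log2 fold change ± SE (horizontal axes) of each regulator for 3D with over 3D without palmitate (left) and 3D with over 2D with palmitate (right), filled where the adjusted p was under 0.05. The left panel reaches 0.93 for Ppp1r15a, and the right panel runs from -1.61 for Chac1 to 0.60 for Atf5.

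Part of the calls with palmitate changed when 1 library was left out. Ppp1r15a and Chac1 were called in all 9 fits with 1 library left out, Atf3 in 6 and Sesn2 in 5. Only those 2 genes were left without replicate 2 or 3 of 3D without palmitate or without replicate 2 of 3D with palmitate, and Sesn2 alone was lost without replicate 1 of 3D with palmitate. Where these calls were lost, the log2 fold changes were 0.568 to 0.595 for Atf3 and 0.558 to 0.657 for Sesn2. The same fits called 71 to 148 of all genes, beside 275 with all libraries. An effect of the library left out was not told apart from that of fewer libraries. Without replicate 3 of 3D with palmitate, the smallest library, 6 were called, with Atf4 (log2 fold change 0.22) and Trib3 (0.46) added. That fit called 1901 of 12787 genes, 1095 of them higher, beside 275 with all libraries. In this smallest library 8 of the 10 regulators were below the mean of their group. The median deviation was -0.11 on the log2 scale, and that of Cebpb was -0.41. Replicate 1 of 3D without palmitate had 9 of the 10 above its group's mean, with a median of 0.15. Ppp1r15a and Chac1 were also the only ones called when just both 3D groups were fitted, or with the share of Rn45s as a covariate, where 77 and 44 of all genes were called. The log2 fold changes of the lost calls were 0.64 and 0.57 for Atf3 and 0.64 and 0.69 for Sesn2 in these fits, beside 0.65 for both in the fit of all libraries. That share was 1.97%, 1.77% and 2.77% in 3D without palmitate and 3.14%, 5.38% and 1.81% in 3D with palmitate, and its part in the difference was not tested further.

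**Figure D3:**
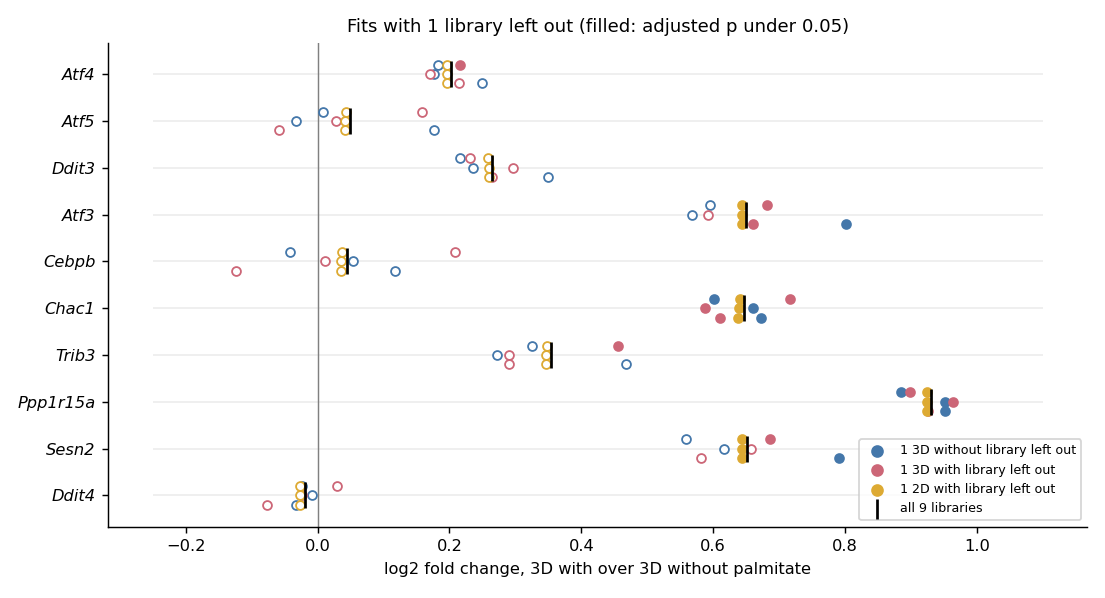
Log2 fold change for 3D with over 3D without palmitate (horizontal axis) in 9 fits that each left out 1 library, coloured by the group of that library, with a bar for the fit to all 9 and filled points where the adjusted p was under 0.05. Points of Ppp1r15a and Chac1 are all filled, those of Atf3 and Sesn2 partly, and those of Atf5, Cebpb and Ddit4 scatter around 0.

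The culture format went with larger differences. With palmitate in both, 8 of the regulators were lower and 2 were higher in 3D than in 2D, and all 10 were called, in a comparison that called 34.5% of all genes higher and 33.9% lower. It uses the same 3D libraries with palmitate as the comparison above, so the values of both are given side by side and not correlated. The median log2 fold change was -0.997, beside 0.0083 over all genes tested. For 8 regulators every 3D library lay below every 2D library, and for 1, Atf5, above, which held for 34.8% and 34.6% of all genes.

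Chac1 showed the largest difference, with 76.4, 75.3 and 76.7 CPM in 2D against 25.9, 26.7 and 20.8 CPM in 3D. This is 3.05-fold and a log2 fold change of -1.61 (SE 0.081). Every 2D library was above every 3D library. Atf3 fell by 1.29 on the log2 scale in 3D (SE 0.10), from 41.9, 38.0 and 40.2 CPM in 2D. Ppp1r15a fell by 1.23 (SE 0.075), from 51.3, 48.7 and 50.6 CPM, and Trib3 by 1.20 (SE 0.11), from 138, 134.5 and 144.5 CPM. All 3 stood between 2.3-fold and 2.45-fold higher in 2D.

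Atf4 itself stood apart by culture format. The 2D libraries held 705, 669 and 739 CPM against 312 to 330.2 CPM in 3D, a log2 fold change of -1.15 (SE 0.064). Ddit3 was at 27.0, 29.6 and 32.7 CPM in 2D, and its log2 fold change was -0.85 (SE 0.098). Removal of the trend with GC content and transcript length brought this to -0.48. Both mTORC1 inhibitors differed less: Sesn2, with 18.5, 20.3 and 20.8 CPM in 2D, had a log2 fold change of -0.55 (SE 0.11), and Ddit4, with 188.5, 180.1 and 205 CPM, had -0.42 (SE 0.070), or -0.24 without the GC and length trend.

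Atf5 and Cebpb went the other way. Atf5 was at 149, 139 and 167 CPM in 2D and higher in every 3D library, with a log2 fold change of 0.60 (SE 0.12). Cebpb measured 124, 109 and 116 CPM in 2D and 200.2, 172 and 121 CPM in 3D, and was called at 0.52 (SE 0.13) although replicate 3 of 3D lay within the range of the 2D libraries. Without that library the value was 0.69, and without replicate 1 of 3D with palmitate it was 0.355. All 10 regulators were called in the same direction in each of the 18 alternative fits.

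Across the 3 conditions, Atf4, Ddit3, Atf3, Chac1, Ppp1r15a and Sesn2 ranked 2D with palmitate, 3D with palmitate, 3D without palmitate, with no overlap between neighbours. The share of all genes with this separated order was not counted, so it is not shown to be particular to these regulators. Trib3 had the same order of means, but its 3D groups overlapped. Ddit4 was highest in 2D and overlapped between the 3D groups, and for Atf5 and Cebpb the 3D groups overlapped with each other. With no 2D culture without palmitate, the change of these genes with palmitate in 2D was not tested.

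Overlapping genes limit some of these counts. The library kit keeps the strand, but the strand setting of the counting is not given in the sources used here, and without strand the reads of 2 overlapping genes cannot be told apart. Ddit3 overlaps Mars, a methionyl-tRNA synthetase gene on the opposite strand, whose log2 fold changes were 0.23 with palmitate and -1.07 for 3D against 2D. Atf5 overlaps Nup62 (0.25 and -0.46) and Cebpb overlaps Tmem189 (-0.044 and -0.13), while Tulp2, opposite Ppp1r15a, had at most 1 count in any library. Beyond overlapping genes, no other GENCODE transcript matched a regulator over 50 bases at 95% identity.

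The genes that ATF4 is known to switch on were listed by role, 48 in all, of which 46 were tested. With palmitate 13 of them were called higher and none lower, and the median difference was 0.22 on the log2 scale, beside 1.38% higher, 0.811% lower and a median of 0.0077 over all genes tested. This list and those that follow were also put together with earlier results known, so their counts and values are a description. The genes called with palmitate were 7 of 14 in amino acid synthesis, 1 of 10 in amino acid transport and 2 of 9 others. The remaining 3 were of 13 listed as tRNA synthetases, a group that also holds the tRNA exporter Xpot. Slc1a5, a glutamine transporter, Shmt2, of mitochondrial serine catabolism, and Gpt2, an alanine aminotransferase, ranked first by p in this list, with log2 fold changes of 0.41 (SE 0.079), 0.37 (SE 0.072) and 0.36 (SE 0.073), and all were called. The count of 13 fell to 0 in several fits. Among them were those with only both 3D groups, with the share of Rn45s as a covariate and without replicate 2 of 3D with palmitate. These called 77, 44 and 78 of all genes, beside 275 in the fit of all libraries. Without replicate 3 of 3D with palmitate the count of effectors rose to 26, in a fit that called 1901 of all genes.

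Between 3D and 2D with palmitate, 38 of the 46 effectors were lower in 3D and 7 were higher (median log2 fold change -0.80), beside 33.9% lower and 34.5% higher over all genes. All 13 genes of the tRNA synthetase group, Xpot included, and 13 of 14 amino acid synthesis genes were lower. Among them were Mthfd2, of mitochondrial folate metabolism (-1.97, SE 0.068), and Gpt2 (-1.84, SE 0.070). Amino acid transport was split, with 5 lower and 4 higher in 3D, and Slc7a11, the cystine transporter, was higher by 2.62 (SE 0.099). That is the opposite direction to Chac1, Trib3 and Atf4.

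**Figure D4:**
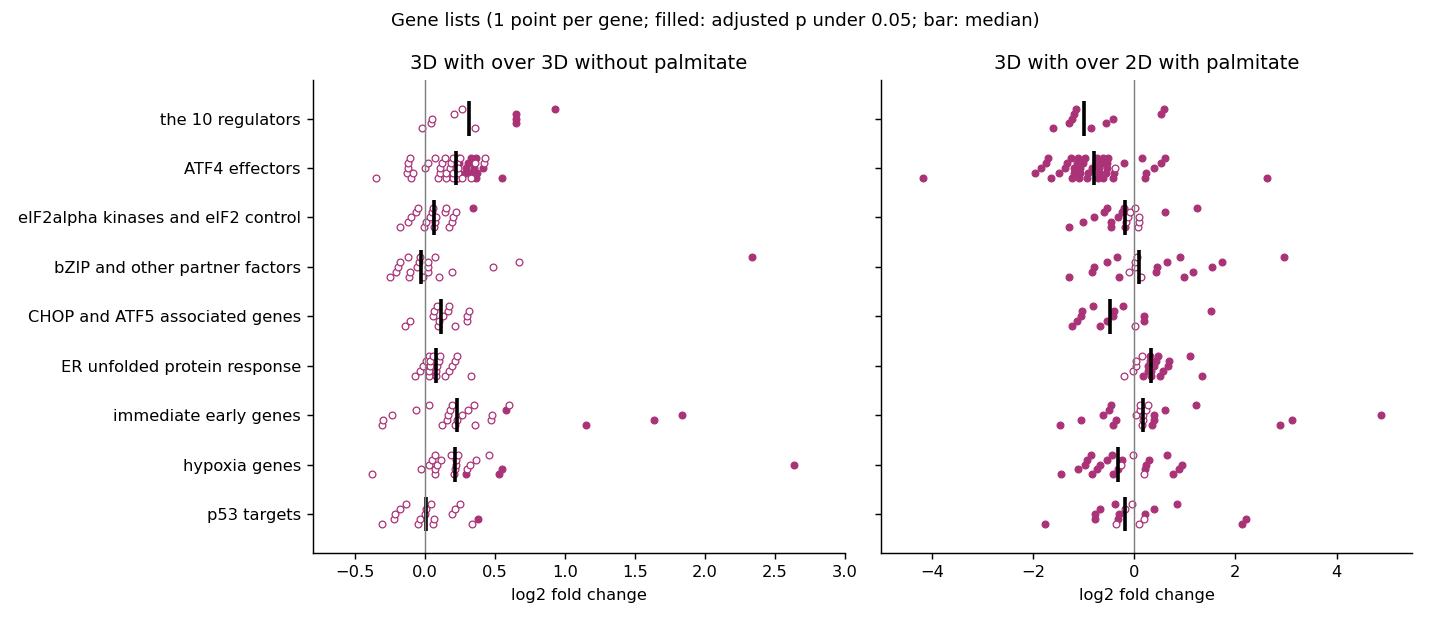
Log2 fold change (horizontal axes, with a wider range on the right) of each tested gene of the regulators and of 8 other lists for 3D with over 3D without palmitate (left) and 3D with over 2D with palmitate (right), filled where the adjusted p was under 0.05 and with a bar at the median. The ATF4 effectors have medians of 0.22 and -0.80, and the unfolded protein response genes have 0.076 and 0.33.

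Upstream of Atf4, 20 genes of the eIF2α kinases and of eIF2 control were tested. With palmitate 1 was called higher and none lower, beside 1.38% and 0.811% of all genes. It was Eif2b4, a subunit of the eIF2B exchange factor (log2 fold change 0.35). The mRNA of none of the 4 kinases was called, and that of Eif2ak3, which encodes PERK, had a log2 fold change of 0.22 (SE 0.080, not called), beside 0.19 (SE 0.069, not called) for Eif2b1. In 3D against 2D, 11 of the 20 were lower and 2 higher, beside 33.9% and 34.5% of all genes. Eif2s2, the β subunit of eIF2, fell by 1.30 on the log2 scale in 3D (SE 0.096) and Eif2b3 by 1.02 (SE 0.086), while Dnajc3, an inhibitor of PERK and PKR, rose by 1.25 (SE 0.099).

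The XBP1 and ATF6 arms of the unfolded protein response went the other way from Atf4 in the culture comparison. Of 21 such genes tested, 16 were higher in 3D than in 2D and none was lower (median log2 fold change 0.33), beside 34.5% and 33.9% of all genes. None of the 21 was called with palmitate, where 18 of 21 estimates were above 0 and the median was 0.076. Dnajb9, Ern1 and Xbp1 rose by 1.11, 1.34 and 0.69 on the log2 scale in 3D. With palmitate the first by p were Creld2 at 0.23 (SE 0.064), Sdf2l1 at 0.33 (SE 0.094) and Hyou1 at 0.22 (SE 0.064), none of them called.

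Of the genes tied to CHOP and ATF5, 14 were tested and none was called with palmitate, where Ero1l (0.30, SE 0.084), Clpp (0.30, SE 0.091) and Hspa9 (0.21, SE 0.067) came first by p. In 3D against 2D 10 were lower and 3 higher, beside 33.9% and 34.5% of all genes. The 7 of mitochondrial stress were all lower in 3D, with Hspa9 at -1.23 and Lonp1 at -1.06, against 3 lower and 3 higher of 7 for death and redox, among them Bcl2l11 (BIM) at 1.51. These mitochondrial genes and Atf5 had log2 fold changes of opposite sign. With palmitate 1 of 20 partner factors was called higher, beside 1.38% of all genes. It was Ddit4l, a relative of Ddit4 with under 1 CPM in each group mean, while the uncalled Cebpd and Batf3 had 0.49 (SE 0.16) and 0.67 (SE 0.23). In 3D against 2D 9 of the 20 were higher and 6 lower, beside 34.5% and 33.9% of all genes. Trib2, a relative of Trib3, rose by 2.97 in 3D (SE 0.068), Trib1 rose by 0.91, and Jdp2 fell by 1.30.

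Other lists cover responses in which some of the 10 regulators also take part. Atf3 is also an immediate early gene, and of 23 others 4 rose with palmitate and none fell, beside 1.38% and 0.811% of all genes. Fos (log2 fold change 1.84, SE 0.23), Fosb (1.64, SE 0.22) and Dusp1 (1.15, SE 0.19) led the list. Their libraries with palmitate spread widely, with 40 ± 14.3, 23.2 ± 10 and 15.3 ± 5.23 CPM (mean ± SD). Without palmitate the values were 11.5 ± 2.38, 7.95 ± 0.496 and 7.39 ± 1.1 CPM. In 3D against 2D the same list had 8 higher, led by Egr3 (4.88) and Egr2 (3.11), and 7 lower, among them Myc (-1.47). Ddit4 and Sesn2 answer hypoxia and p53 as well. Of 23 hypoxia genes 4 rose with palmitate, beside 1.38% of all genes. Among them were Angptl4 (2.64, SE 0.24), with a mean of only 0.489 CPM in 3D without palmitate, Car12 (0.55) and Egln3 (0.29). In 3D against 2D 13 were lower, such as Car12 (-1.45) and Ldha (-0.98), and 7 higher, such as Egln3 (0.77). Of 17 p53 targets 1 rose with palmitate, Plk2 (0.38), beside 1.38% of all genes, while Aen (0.33, SE 0.088) and Cdkn1a (0.25, SE 0.066) were not called. In 3D against 2D 5 of these targets were higher, among them Cdkn1a (2.20) and Trp53inp1 (2.13), and 7 lower, among them Plk2 (-1.77). In 3D against 2D, where 34.5% of all genes were called higher and 33.9% lower, the counts of these lists were not tested against other genes.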

How the data were processed

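Poly(A) RNA-seq was available for 9 libraries of 4T1 cells, mapped to 3 groups of 3 by their labels. The authors sequenced single ends of 50 bp, trimmed with fastq-mcf, ran FastQC 0.11.9, mapped to GRCm38 by HISAT2 2.1.0 and used HTSeq for counting. The deposited values are raw counts per gene, without normalisation. The annotation release and strand setting are not given in the sources used here. It is therefore not known to which gene, if any, reads in an overlap of genes were assigned.

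The fit was made in edgeR 4.0.16 (R 4.3.3): filterByExpr on the 3 groups, TMM scaling, and a quasi-likelihood model of group over all 9 libraries, with Benjamini-Hochberg adjustment over 12575 genes and a threshold of 0.05. The 2 contrasts, 3D with against 3D without palmitate and 3D with against 2D with palmitate, share 3 libraries. SEs are absolute log2 fold changes over the square root of F. Profiles were compared as log2 CPM (prior count 2). The procedure was tested on simulated counts with the same spread in every group, which cannot check the unequal spread described below. No 2 libraries of a group had identical counts.

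The members and all lists were chosen with earlier results of these data known. Named were the 10 members, the 3 genes of smallest unadjusted p per list and contrast, and the 2 genes nearest in profile to each member. Loci, lengths and GC content came from GENCODE M21, and promoters from RefSeq (GRCm38.p6). The motif search was also run over the longer lists but is void for the ATF4 effectors, of which only 38 of 48 (under 80%) had a window, and is not reported for these lists. Alternatives were RLE or library-size scaling, no filter or a minimum of 10 counts per library, a fit of just the 2 groups compared, the replicate block, DESeq2 1.42.0, the share of Rn45s as a covariate, removal of the GC and length trend (splines of 4 degrees of freedom) and each library left out in turn. Intervals and SEs cover the spread between these libraries, estimated over all 3 groups together. Libraries of 3D with palmitate differed most from each other. Their counts gave a chi-square per gene of 16.4 to 19.8 between pairs, against 4.8 to 7.4 in 3D without palmitate and 3.9 to 9.3 in 2D. The shared estimate may thus be too small for that group. The smallest library limits genes with few counts.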

Additional observations from a re-analysis of the deposited data

How the results depend on the processing

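For 3D against 2D with palmitate, the 10 regulators kept their call and direction in all 18 alternatives, and the counts over 9 leave-one-out fits stayed at 10 regulators, 43 to 45 ATF4 effectors and 7977 to 8866 genes. With palmitate in 3D, Ppp1r15a and Chac1 were called in all 18, Atf3 in 13, Sesn2 in 12, Trib3 in 3, Atf4 in 1 and the other 4 in 0. Leaving out 1 library gave 2 to 6 regulators, 0 to 26 effectors and 71 to 1901 genes, with 1901 without replicate 3 of 3D with palmitate. Beside 4 regulators, 13 effectors and 275 genes (173 higher, 102 lower), the fit of only the 2 groups compared called 2, 0 and 77, and the share of Rn45s as a covariate called 2, 0 and 44. Removal of the GC and length trend called 28 effectors and 976 genes, scaling by library size only called 8 effectors and 106 genes higher against 121 lower, and no filter on low counts called 617 genes (325 higher, 292 lower). The replicate block called 4 regulators, 0 effectors and 111 genes, and for 3D against 2D 10 regulators. Same-numbered libraries had correlations of -0.238 to 0.145 between their deviations from the group means, beside -0.173 to 0.28 for differently numbered ones. The labels do not say whether the numbers pair the libraries, and so few libraries cannot decide it. Uncalled estimates with palmitate changed sign: Atf5 to -0.0078 with Rn45s and -0.0098 with the trend removed (leave-one-out -0.059 to 0.18), Cebpb to -0.065 and -0.056 (leave-one-out -0.12 to 0.21), and Ddit4 only among the leave-one-out fits (-0.077 to 0.030). The cause was not tested, except that leaving out libraries and fitting fewer groups leaves fewer samples. A fit of 2 groups also takes the spread from those groups alone. Depth limits Sesn2, Atf3 and Ddit3 most, with 81, 97 and 117 counts in the smallest library.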

Other observations

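The genes nearest in profile to each regulator were taken as those with the smallest root mean square difference of centred log2 CPM over the 9 libraries, among 12574 other genes. This is a description of likeness in these libraries, and nothing about shared control follows from it. For Atf4 the nearest were Nkain1 (0.051) and Sars, a seryl-tRNA synthetase gene of the ATF4 effector list (0.054). For Trib3 the nearest was Eif4ebp1, a translation repressor on the same list (0.070), followed by Ube2cbp (0.092). Chac1 was nearest to Steap1 (0.077) and Apol9a (0.079), and Sesn2 to P4ha2, a collagen prolyl hydroxylase (0.077), and Gapdh (0.085).

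Ppp1r15a had the fewest genes near it, with 62 within 0.3, led by Reep6 (0.12) and AU018091 (0.15). Atf3 had 176, led by Fzd9 (0.15) and Reep6 (0.16), and Chac1 had 106. Ddit4 had 6010, led by Pced1a (0.037) and Myl12b (0.043). Nearest to Ddit3 were A930005H10Rik (0.066) and Smn1 (0.080), to Atf5 Nagk (0.057) and Hsd3b7 (0.080), and to Cebpb Bad (0.076) and Nbl1 (0.079). Among the regulators themselves, Atf3 was the 7th nearest gene to Ppp1r15a, at 0.19, and Chac1 the 15th, at 0.23. Atf5 and Cebpb, both higher in 3D than in 2D, were 0.13 apart.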
